A study of Mus musculus with 2 samples.

Results

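Translation initiation and elongation factors are the proteins that place a ribosome on the start codon of an mRNA and then drive it along the message. The genes described here are those of the deposited expression table whose names begin with EIF1 to EIF6 or with EEF1 or EEF2, without EIF5A, EIF5A2 and EIF4E1B. This naming rule, which uses names alone, picked 52 of the 38817 genes. A name is a loose guide to a role, and 4 of the 52 (EIF4A3, EEF1E1, EIF1AD and EIF2C3) are set apart below. Subunits with no gene of that name in the table, such as EIF3B, EIF2B4 and EIF5, were not analysed here.

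The series concerns spermidine, a natural polyamine, and the maturation of pig oocytes. An SPE library, read here as spermidine-treated, was compared with a control library, each from the RNA of a group of 100 oocytes. The labels gave no dose, time or age, and described both as oocytes of wild-type ICR mice, whereas the table placed its genes on pig chromosomes, so the values were read as those of pig gene models. The table also holds a column named Con2 and one named SPD2, which by name may be second libraries of these groups. They matched no labelled sample and were not used here, so 1 library per group was left and no replicate check was made. Every difference below compares these 2 libraries and carries no test and no p-value.

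Initiation begins when eIF1 and eIF1A hold the small ribosomal subunit open for scanning, and eIF2 brings the initiator tRNA. The eIF4 proteins bind the capped mRNA and unwind it, and eIF3 bridges the mRNA machinery to the ribosome. eIF5B then joins the large subunit, after which eEF1A delivers each further aminoacyl-tRNA and eEF2 moves the ribosome forward. In a maturing oocyte transcription is largely silent, so protein output depends on which stored mRNAs are translated. Control of eIF4E, the cap-binding protein, is a known step of that choice. The kinases of eIF2 and the binding proteins of eIF4E are brakes on initiation in many cell types.

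The libraries carried the markers of oocytes. All 9 oocyte markers had at least 1 FPKM on average, from 3.59 to 730 FPKM in the SPE library and from 4.06 to 904 FPKM in the control library. Single markers differed in both directions. GDF9 had 145 FPKM in the SPE library and 78.1 FPKM in the control library, and OOSP2 had 730 FPKM in the SPE library and 904 FPKM in the control library. The 9 summed to 2551 FPKM in the SPE library and 2713 FPKM in the control library. Of 25 cumulus and granulosa markers found, 5 reached a mean of 1 FPKM and 7 were listed at 0 in both libraries, LHCGR, AMH, AMHR2 and NR5A1 among them. Their levels ranged from 0 to 5.55 FPKM in the SPE library and from 0 to 10.8 FPKM in the control library. They summed to 14.0 FPKM in the SPE library and 32.3 FPKM in the control library, and their part in the values below was not tested. INHBB had 1.28 FPKM in the SPE library and 10.8 FPKM in the control library, and INHBA had 5.55 FPKM in the SPE library and 9.87 FPKM in the control library. HSD3B1 had 0.111 FPKM in the SPE library and 1.90 FPKM in the control library, and STAR had 0.168 FPKM in the SPE library and 1.27 FPKM in the control library. Not all of the list went that way. GREM1 had 1.22 FPKM in the SPE library and 1.06 FPKM in the control library. CYP19A1 had 0.339 FPKM in the SPE library and 0.264 FPKM in the control library, and FOXL2 and PTGS2 were also higher in the SPE library. CYP11A1 was nearly equal, at 0.486 FPKM in the SPE library and 0.490 FPKM in the control library. Such a list cannot tell fewer cells of a type from less RNA per cell. Mitochondrial genes held 65.7% of the summed FPKM in the SPE library and 62.7% in the control library, and ribosomal RNA genes held 3.36% in the SPE library and 4.78% in the control library. FPKM is relative, so these shares touch every other value.

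The 16 translation factor genes that averaged at least 1 FPKM had similar levels in both libraries. FPKM scales fragments to transcript length and to the mapped fragments of the library. A comparison between genes also depends on the gene model of each, and the annotation behind the values is not given. The folds between genes below therefore describe listed values, and the part of the gene models in them was not tested. A gene was taken as measured when its mean over both libraries was at least 1 FPKM. Of the 52 genes 16 were measured (30.8%), against 3030 of the 14922 genes with an established symbol (20.3%). Differences were computed as log2((SPE + 1) / (control + 1)). None of the 16 measured genes exceeded its control level by 2-fold or more in the SPE library, where 2.85% of all 4391 measured genes did. None lay 2-fold or more below it, where 2.14% of all measured genes did. With 16 genes these shares amount to fewer than 1 gene in each direction, so the count of 0 does not set the factors apart from other genes. The median log2 ratio was -0.05 for the 16 genes and -0.04 for all measured genes. The SPE library had the higher value for 7 of the 16 genes and the lower value for 9 (56.2%), against 55.4% lower among all measured genes.

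**Figure D1:**
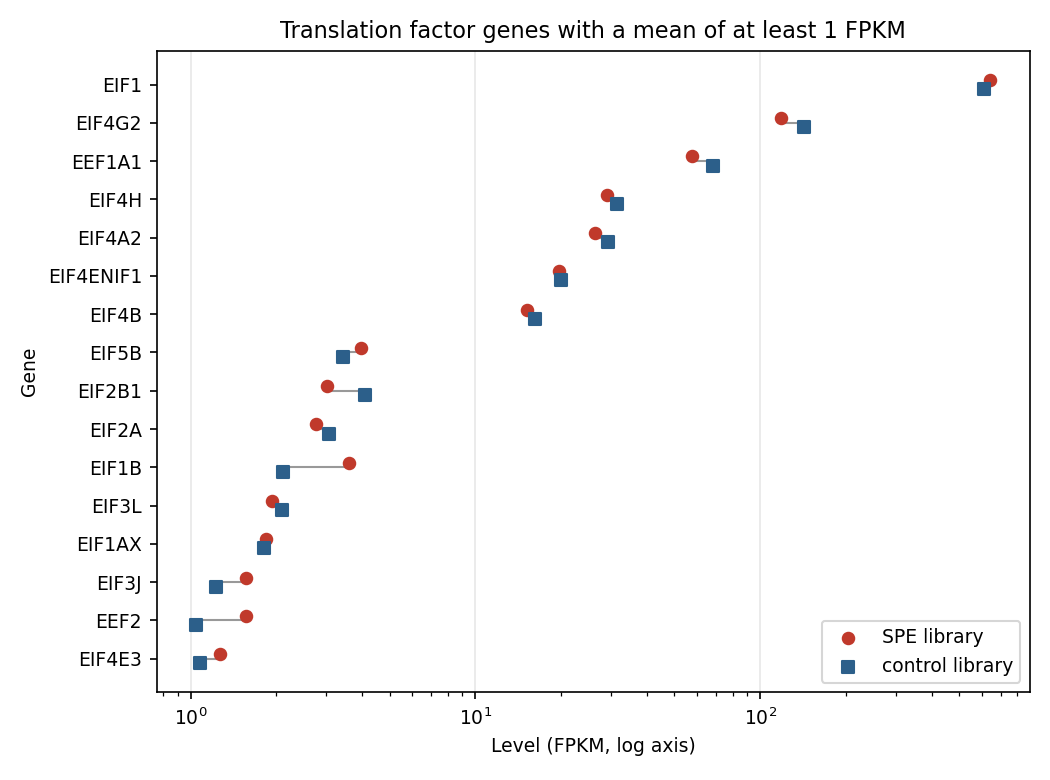
Level in FPKM, on a log axis, of the 16 measured translation factor genes; circles are the SPE library and squares the control library, with 1 library each and no error bars. The points of each gene lie close together, and EIF1B, at 3.61 FPKM in the SPE library and 2.11 FPKM in the control library, has the widest gap in fold.

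Start codon selection held the gene with the highest listed level. EIF1, which keeps the scanning ribosome from starting at a wrong codon, had 641 FPKM in the SPE library and 612 FPKM in the control library (log2 ratio 0.07). It ranked 29 and 30 among all genes of the table in these libraries. EIF1 alone made up 68.4% of the summed FPKM of the 52 genes in the SPE library and 64.6% in the control library. Its gene lies on chromosome 12 (21278602 to 21281184), in a model of 2583 bases that no other gene of the table overlapped.

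EIF1B, a close paralogue of EIF1, had 3.61 FPKM in the SPE library and 2.11 FPKM in the control library. Its log2 ratio of 0.57 was the largest among the 16 genes, and corresponds to 1.71-fold without the pseudocount. EIF1B was the 1 gene of the 16 at or beyond 1.5-fold on that plain scale, and no gene reached 1.5-fold once the pseudocount was included. EIF1 and EIF1B are similar in sequence, and the sources used here do not say how reads matching both were assigned. The EIF1B locus was also shared with a provisional gene, listed at 0 in both libraries. EIF1 stood 178-fold above EIF1B in the SPE library and 291-fold above it in the control library. EIF1AX, the X-linked gene of eIF1A, was at 1.84 FPKM in the SPE library and 1.81 FPKM in the control library. Its Y-linked counterpart EIF1AY was listed at 0 in both.

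The eIF4 genes had the second highest summed level of the groups. They summed to 192 FPKM in the SPE library and 223 FPKM in the control library over 10 genes. Of the 5 measured, 4 were lower and 1 higher in the SPE library, though EIF4B changed sign when a running median over level was removed. The 4 lower genes all averaged over 10 FPKM, where 63.2% to 78.1% of all genes were lower, depending on the level. Over all 10 eIF4 genes 6 were lower and 4 higher. EIF4G2, also known as DAP5, is a scaffold protein related to eIF4G that lacks the eIF4E-binding part and supports initiation without it. It had 118 FPKM in the SPE library and 143 FPKM in the control library (log2 ratio -0.27), on chromosome 2 (52012917 to 52025272). The classical scaffolds were far lower. EIF4G1 was at 0.897 FPKM in the SPE library and 1.01 FPKM in the control library, and so just missed the mean of 1 FPKM. EIF4G3 was at 0.0327 FPKM in the SPE library and 0.0459 FPKM in the control library. EIF4G2 thus stood 132-fold above EIF4G1 in the SPE library and 142-fold above it in the control library.

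The helicase genes showed the same inequality between paralogues. EIF4A2, an RNA helicase that unwinds the start of the mRNA, had 26.2 FPKM in the SPE library and 29.3 FPKM in the control library (log2 ratio -0.15). EIF4A1, the form that dominates in most dividing cells, had 0.886 FPKM in the SPE library and 0.518 FPKM in the control library. EIF4A2 was therefore 29.6-fold above EIF4A1 in the SPE library and 56.5-fold above it in the control library. The locus of EIF4A2 was shared with RFC4, listed at 6.33 FPKM in the SPE library and 6.89 FPKM in the control library. How reads were divided there is not given. The helicase cofactor EIF4H had 28.9 FPKM in the SPE library and 31.5 FPKM in the control library (log2 ratio -0.12). EIF4B, the other cofactor, had 15.1 FPKM in the SPE library and 16.2 FPKM in the control library (log2 ratio -0.09), in a short model of 2887 bases.

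The general cap-binding gene was listed below 1 FPKM in both libraries, and a low listed value is not read here as scarce mRNA. EIF4E had 0.628 FPKM in the SPE library and 0.208 FPKM in the control library, which is 3.01-fold higher without the pseudocount and has a log2 ratio of 0.43 with it. Its homologue EIF4E3 had 1.27 FPKM in the SPE library and 1.08 FPKM in the control library. EIF4E2, which binds the cap weakly and is tied to repression, had 0.0467 FPKM in the SPE library and 0.0456 FPKM in the control library. The oocyte-type cap-binding gene EIF4E1B, left out by the naming rule, stood at 86.4 FPKM in the SPE library and 87.6 FPKM in the control library. The summed level of the 3 cap-binding genes kept by the rule lay far below it in both libraries.

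Among the proteins that bind eIF4E, 1 gene held nearly all of the signal. EIF4ENIF1, also known as 4E-T, shuttles eIF4E into the nucleus and takes part in storing repressed mRNA. It had 19.7 FPKM in the SPE library and 20.0 FPKM in the control library, a log2 ratio of -0.02 that became positive under 3 of the scalings tried. It made up 97.3% of the summed FPKM of the 4 eIF4E binders in the SPE library and 96.5% in the control library. The inhibitor genes that the kinase mTOR controls were low. EIF4EBP1 was at 0.262 FPKM in the SPE library and 0.512 FPKM in the control library, EIF4EBP2 was at 0.293 FPKM in the SPE library and 0.214 FPKM in the control library, and EIF4EBP3 was listed at 0 in both.

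**Figure D2:**
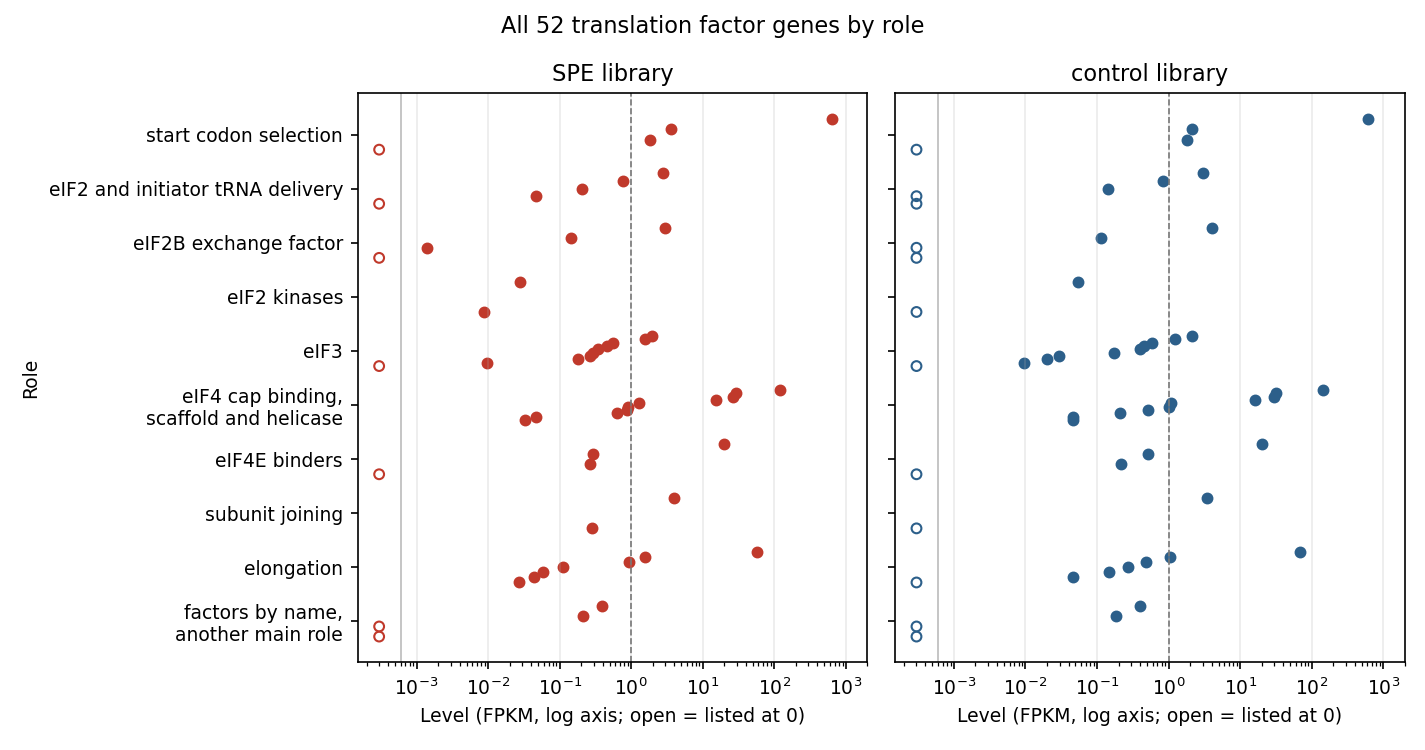
Level in FPKM, on a log axis, of all 52 translation factor genes grouped by role, with the SPE library in the left panel and the control library in the right one; each point is 1 gene, open circles at the left edge are genes listed at 0, and the dashed line marks 1 FPKM. In several roles 1 gene lies far to the right of the rest, as EIF1 (641 FPKM in SPE, 612 FPKM in control) does in start codon selection. The highest eIF4 genes lie closer together, and the eIF3 genes stay at or below 2.10 FPKM.

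The genes that load the initiator tRNA were listed at 3.05 FPKM or less in both libraries. EIF2A, a tRNA-binding factor distinct from eIF2 itself, had 2.76 FPKM in the SPE library and 3.05 FPKM in the control library (log2 ratio -0.11). The alpha subunit gene EIF2S1, whose product is the target of the stress kinases, had 0.772 FPKM in the SPE library and 0.824 FPKM in the control library. The gamma subunit gene EIF2S3 had 0.205 FPKM in the SPE library and 0.144 FPKM in the control library. The beta subunit gene EIF2S2 was listed at 0 in both libraries. A provisional gene over the identical locus was listed at 1.74 FPKM in the SPE library and 1.51 FPKM in the control library. How reads were divided at that locus is not given, and a listed 0 in a table without read counts is not read here as absence. EIF2D, which can deliver tRNA without eIF2, was at 0.0467 FPKM in the SPE library and listed at 0 in the control library.

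The exchange factor eIF2B recharges eIF2 with GTP. EIF2B1, its alpha subunit gene, had 3.01 FPKM in the SPE library and 4.09 FPKM in the control library. Its log2 ratio of -0.35 was the most negative of the 16 measured genes, and in the control library the level was 1.36-fold that of the SPE library without the pseudocount. EIF2B2 was at 0.146 FPKM in the SPE library and 0.114 FPKM in the control library. EIF2B3 was at 0.00138 FPKM in the SPE library and listed at 0 in the control library, and EIF2B5 was listed at 0 in both. The EIF2B5 locus was shared with 3 provisional genes, listed at up to 0.0321 FPKM in the SPE library and 0.0176 FPKM in the control library. How reads were divided there is not given.

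The naming rule found 2 eIF2 kinase genes, and neither reached 0.1 FPKM in either library. The kinase genes EIF2AK2 and EIF2AK4 had no entry of that name in the table and were not analysed here. EIF2AK3, or PERK, the kinase of endoplasmic reticulum stress, had 0.00886 FPKM in the SPE library and 0.0540 FPKM in the control library. EIF2AK1, the haem-regulated kinase, had 0.0277 FPKM in the SPE library and was listed at 0 in the control library.

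The eIF3 genes, whose products form a single large complex, had unequal levels. Of 10 subunit genes 9 were above 0 in both libraries, and 8 were below 1 FPKM in both. They summed to 5.62 FPKM in the SPE library and 4.99 FPKM in the control library. EIF3L had 1.93 FPKM in the SPE library and 2.10 FPKM in the control library. EIF3J, a loosely attached subunit, had 1.57 FPKM in the SPE library and 1.23 FPKM in the control library (log2 ratio 0.21). EIF3A, the scaffold of the complex, had 0.347 FPKM in the SPE library and 0.450 FPKM in the control library. EIF3E was at 0.565 FPKM in the SPE library and 0.587 FPKM in the control library, EIF3M at 0.465 FPKM in the SPE library and 0.400 FPKM in the control library, and EIF3D at 0.269 FPKM in the SPE library and 0.171 FPKM in the control library. EIF3G was listed at 0 in both. EIF3H lay lowest of those above 0, at 0.00978 FPKM in the SPE library and 0.00953 FPKM in the control library. EIF3L stood 198-fold above EIF3H in the SPE library and 220-fold above it in the control library, and the EIF3H locus was shared with a provisional gene.

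For the last steps of initiation, EIF5B had 3.95 FPKM in the SPE library and 3.43 FPKM in the control library (log2 ratio 0.16). EIF6, which keeps the large ribosomal subunit from joining too early, had 0.286 FPKM in the SPE library and was listed at 0 in the control library. It was the 1 gene of the 52 on an unplaced scaffold.

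EEF1A1 held most of the signal of the elongation genes in both libraries. EEF1A1, on chromosome 1 (103473705 to 103477893), had 57.6 FPKM in the SPE library and 68.5 FPKM in the control library (log2 ratio -0.24). It held 95.5% of the summed FPKM of the 7 elongation genes in the SPE library and 97.2% in the control library. EEF2, the translocation factor, had 1.56 FPKM in the SPE library and 1.05 FPKM in the control library (log2 ratio 0.32, or 1.49-fold without the pseudocount). EEF1A1 was 36.8-fold above EEF2 in the SPE library and 65.4-fold above it in the control library.

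The subunit genes of the complex that recharges eEF1A were lower still and differed in direction. EEF1B2 had 0.925 FPKM in the SPE library and 0.478 FPKM in the control library. EEF1G had 0.112 FPKM in the SPE library and 0.273 FPKM in the control library, and EEF1D had 0.0431 FPKM in the SPE library and 0.147 FPKM in the control library. Thus 1 of these genes was higher and the others were lower in the SPE library. EEF2K, the kinase that inhibits eEF2, had 0.0581 FPKM in the SPE library and 0.0460 FPKM in the control library. EEF2KMT, a methyltransferase that modifies eEF2, had 0.0269 FPKM in the SPE library and was listed at 0 in the control library. The EEF2KMT locus was shared with ALG1, listed at 0.158 FPKM in the SPE library and 0.519 FPKM in the control library. The EEF2K locus was shared with a provisional gene, listed at 0.101 FPKM in the SPE library and 0.240 FPKM in the control library. How reads were divided at these loci is not given.

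Of the genes set apart by role, EIF4A3 is a core part of the exon junction complex and had 0.388 FPKM in the SPE library and 0.399 FPKM in the control library. EEF1E1, a part of the aminoacyl-tRNA synthetase complex, had 0.213 FPKM in the SPE library and 0.187 FPKM in the control library. EIF2C3, an older symbol of the Argonaute gene AGO3, and EIF1AD were listed at 0 in both libraries.

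Levels within the family spanned several orders of magnitude and had a similar order in the libraries. The 3 highest genes, EIF1, EIF4G2 and EEF1A1, held 87.2% of the summed FPKM of the 52 genes in the SPE library and 86.9% in the control library. The median of the 52 genes was 0.292 FPKM in the SPE library and 0.244 FPKM in the control library. Over the 40 genes above 0 in both libraries Spearman's rho between the libraries was 0.95, a description across genes, which are not independent replicates. The 52 genes lay on 16 chromosomes and 1 unplaced scaffold. Other genes of the table overlapped 15 of the 52 loci, 4 of them among the measured genes (EEF1A1, EIF4A2, EIF5B and EIF1B). The EEF1A1 and EIF5B loci were each shared with a provisional gene listed at 0 in both libraries. EIF3G shared its locus with P2RY11, and EIF4E2 and EIF4G3 shared theirs with provisional genes, all likewise listed at 0. How reads were divided at these loci is not given.

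As a whole the family took up nearly the same share of each library. The 52 genes held 0.372% of the summed FPKM in the SPE library and 0.380% in the control library. The order turned when mitochondrial and ribosomal RNA genes were left out of the sum, to 1.20% in the SPE library and 1.17% in the control library. Without EIF1 the share of the full sum was 0.118% in the SPE library and 0.134% in the control library.

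**Figure D3:**
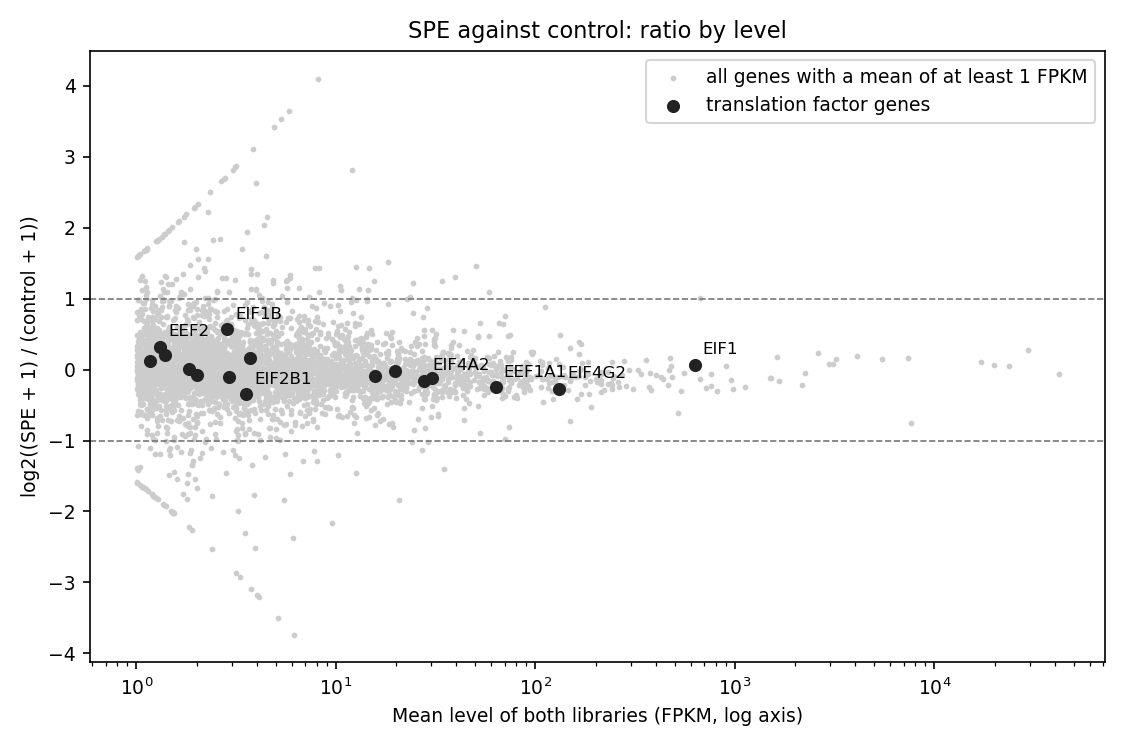
Log2((SPE + 1) / (control + 1)) against the mean level in FPKM (log axis) for all 4391 measured genes, in grey, and the 16 translation factor genes, in black; dashed lines mark 2-fold. The black points run from -0.35 (EIF2B1) to 0.57 (EIF1B), and all lie between the dashed lines.

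The direction of the differences varied with level. Of the 7 factor genes averaging 10 FPKM or more, 6 were lower in the SPE library, EIF1 being the exception. EIF4B and EIF4ENIF1 are 2 of those 6, and their signs depended on the scaling as given above. Of the 9 measured genes below 10 FPKM, 6 were higher and 3 lower. All genes of the table had a similar slope. The share lower in the SPE library was 48.6% at 1 to 2 FPKM, 54.9% at 2 to 10 FPKM, 63.2% at 10 to 30 FPKM, 64.3% at 30 to 100 FPKM and 78.1% at 100 to 1000 FPKM. In each of these ranges the 5th to the 95th percentile of the log2 ratio of all genes gives a scale for a single gene. None of the 16 measured genes lay outside the range of its level. For EIF1B, at 2 to 10 FPKM, that range ran from -0.61 to 0.77. For EIF4G2, at 100 to 1000 FPKM, it ran from -0.37 to 0.25.

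Below 1 FPKM more factor genes had a higher value in the SPE library than a lower one. From 0.1 to 1 FPKM 7 of 19 factor genes were lower in the SPE library, against 45.7% of all genes in that range. Of 36 factor genes under a mean of 1 FPKM, the SPE library had the higher value for 19 and the lower value for 10, and 7 were listed at 0 in both. The same count over all genes under 1 FPKM was not made. A listed 0 in the control library alone occurred for 5 genes (EIF6, EIF2D, EIF2AK1, EEF2KMT and EIF2B3), and in the SPE library alone for none. Among all 38817 genes, 3051 were listed at 0 in the control library alone and 1576 in the SPE library alone. In total 16031 genes were above 0 in the SPE library and 14556 in the control library. More listed zeros in the control library were thus not particular to the factor genes.

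Of 18 factor genes with a mean from 0.1 to 1 FPKM and above 0 in both libraries, 3 had an SPE level of at least 2-fold the control level without a pseudocount, where 15.3% of 5055 such genes did. These were EIF4E, EIF3I and EIF3K. EIF3I had 0.290 FPKM in the SPE library and 0.0202 FPKM in the control library, and EIF3K had 0.179 FPKM in the SPE library and 0.0291 FPKM in the control library. In the other direction EEF1G was at least 2-fold lower, 1 of the 18, where 13.4% of such genes were. At these shares 18 genes would hold between 2 and 3 genes in each direction. The read numbers behind them are unknown, so no counting interval can be given.

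Other genes of the translation pathway, in 7 lists, had low levels and small differences for the most part. On the log2(FPKM + 1) scale 1 of the 28 measured genes in these lists passed 2-fold, where 2.85% of all measured genes did so upward and 2.14% downward. At these shares 28 genes would hold between 1 and 2 such genes. This was PPP1CA, a catalytic subunit of the phosphatase that can restore eIF2, at 1.89 FPKM in the SPE library and 0.197 FPKM in the control library (log2 ratio 1.27). The 7 measured genes of that list, eIF2 phosphatase and response, had a median of 0.04, with 4 higher and 3 lower in the SPE library. ATF4, a transcription factor made when eIF2 is phosphorylated, led the list at 59.4 FPKM in the SPE library and 60.7 FPKM in the control library. DDIT3, a stress transcription factor downstream of ATF4, was at 2.44 FPKM in the SPE library and 4.33 FPKM in the control library.

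Signalling to initiation through mTOR and the MNK kinases had 3 measured genes of 14 found, all 3 lower in the SPE library by small amounts (median -0.07). MKNK2, a kinase that phosphorylates eIF4E, had 20.7 FPKM in the SPE library and 21.8 FPKM in the control library. MTOR itself was at 0.0208 FPKM in the SPE library and 0.0232 FPKM in the control library. AKT2 had the most negative ratio of the list (-0.10) and MKNK1, the other MNK kinase gene, the least (-0.06).

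Initiation helpers outside the EIF names had 6 measured genes of 13 found, with 4 higher and 2 lower in the SPE library (median 0.08). DDX3X, an RNA helicase that aids scanning, had 84.3 FPKM in the SPE library and 102 FPKM in the control library (log2 ratio -0.27). ABCF2 had the largest ratio, 0.34, at 3.80 FPKM in the SPE library and 2.79 FPKM in the control library. Poly(A) binding and cap partners had 4 measured genes of 14 found, 2 higher and 2 lower (median 0.04). PABPC4, a poly(A)-binding protein gene, led them at 13.2 FPKM in the SPE library and 14.2 FPKM in the control library. PABPC1L, an oocyte form of poly(A)-binding protein, had the largest ratio (0.28), at 1.22 FPKM in the SPE library and 0.830 FPKM in the control library. NCBP2, a subunit of the nuclear cap-binding complex, had the most negative ratio (-0.27), at 1.38 FPKM in the SPE library and 1.87 FPKM in the control library.

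Elongation helpers and diphthamide synthesis had 6 measured genes of 9 found, 3 higher and 3 lower (median -0.05). DPH3, needed to make the diphthamide residue of eEF2, had 40.3 FPKM in the SPE library and 34.6 FPKM in the control library. GTPBP1 had the most negative ratio, -0.46, at 1.41 FPKM in the SPE library and 2.31 FPKM in the control library. Termination and ribosome recycling had 1 measured gene of 6 found, PELO, which rescues stalled ribosomes, at 10.2 FPKM in the SPE library and 6.02 FPKM in the control library (log2 ratio 0.68). Mitochondrial translation factors had 1 measured gene of 10 found, MTFMT, the enzyme that formylates the mitochondrial initiator tRNA, at 1.77 FPKM in the SPE library and 1.65 FPKM in the control library.

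**Figure D4:**
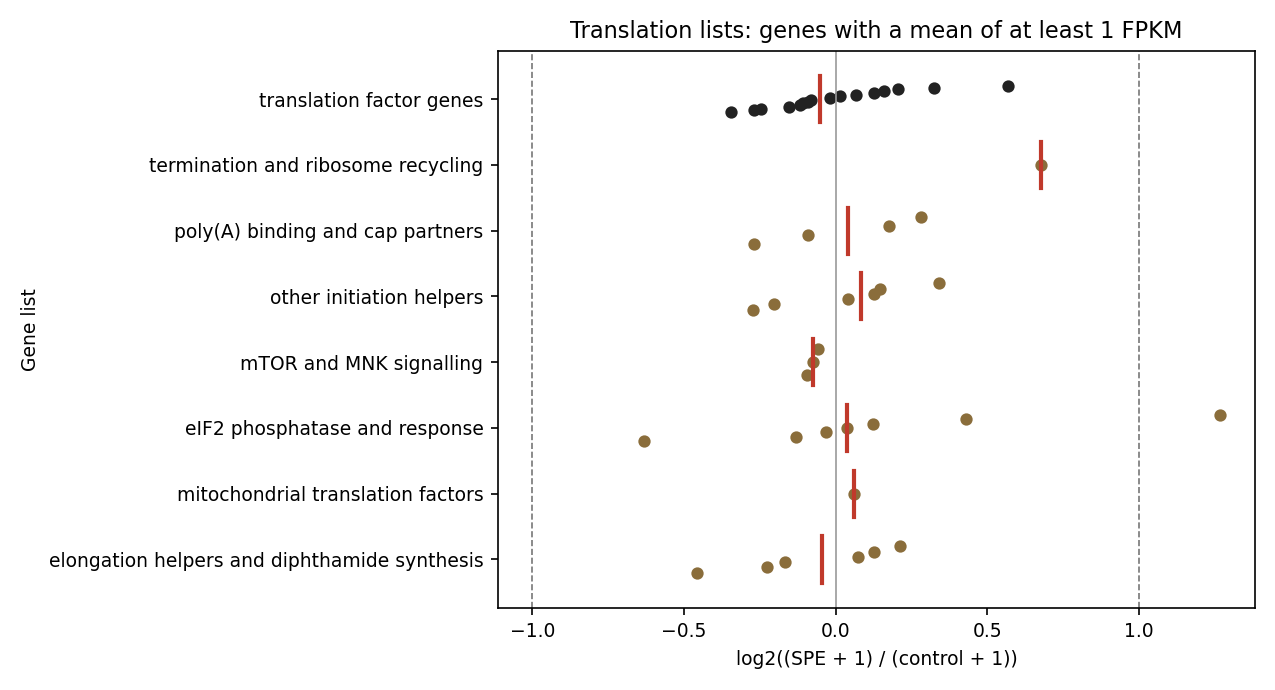
Log2((SPE + 1) / (control + 1)) of each measured gene in the translation factor family and in 7 other lists of the translation pathway; each point is 1 gene, the red bar is the list's median, and dashed lines mark 2-fold. PPP1CA, at 1.27, is the single point beyond a dashed line.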

How the data were processed

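The data were 1 table of FPKM values deposited by the authors, with the unit taken from the table's name. The tools named are Bowtie2 2.2.5 and RSEM, with the build mm9, per the submitters' processing notes, yet the loci lie on pig chromosomes. The sources used here do not give the build, annotation or program behind the table, or the use of strand. Start positions were raised by 1 to count from 1. The columns named SPD1 and Con1 were matched to the SPE and the control sample by name and number. Another 2 columns of values, named SPD2 and Con2, matched no labelled sample and were not used, although by name they may be second replicates. Without read counts in the table the depth per library is unknown.

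The FPKM columns summed to 251829 in the SPE library and 249340 in the control library. A pseudocount of 1 FPKM entered each ratio and makes differences of low genes look smaller, and counts were made over genes averaging 1 FPKM or more. Every measured factor gene is named. Of the rest the text names the highest, sole representatives of a factor and, chosen after their values were seen, others that complete a complex. Of each other list it names the highest and extreme genes, and MTOR; 1 gene of these lists is not reported here. The genes, lists and rules were chosen with earlier results of these data known. The calculation was tested on simulated data. Alternatives covered pseudocount, minimum level, scaling, fold, overlapping loci and short models. Python 3.11.15, pandas 2.3.3, numpy 2.4.6 and matplotlib 3.10.9 were used.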

Additional observations from a re-analysis of the deposited data

How the results depend on the processing

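No translation factor gene reached the fold in force under any alternative run, 1.5-fold and 4-fold included. The run with no minimum level kept the pseudocount of 1 FPKM, with which genes of very low level cannot reach 2-fold. It therefore cannot decide for the genes it adds at such levels. Without a pseudocount, in the range from 0.1 to 1 FPKM, EIF4E, EIF3I and EIF3K were at least 2-fold higher and EEF1G at least 2-fold lower in the SPE library, as given above. Among all 4391 measured genes 219 passed 2-fold as reported. With a pseudocount of 0.1 FPKM 406 of them did, and with 5 FPKM 38. Upper quartile scaling gave 219 of the same 4391 genes, centring on the median 229 and removal of a running median 223. Without mitochondrial and ribosomal RNA genes 225 of 4373 passed. The minimum level and the TPM scale changed the set of genes as well. With no minimum level 384 of 17607 passed, at a minimum of 10 FPKM 24 of 1097 and on the TPM scale 1056 of 7712. Of the 4391 genes 580 passed at 1.5-fold and 44 at 4-fold. The factor genes' median log2 ratio, -0.05 as reported, was -0.059 and -0.026 with pseudocounts of 0.1 and 5 FPKM, 0.014 with no minimum and -0.117 at a minimum of 10 FPKM. It was -0.035 on the TPM scale, -0.014 after centring on the median, 0.0093 after removal of a running median and -0.0030 without mitochondrial and ribosomal RNA genes. EIF4ENIF1 changed sign under the last 3 of these and EIF4B under the running median, and no other measured factor gene did under any alternative run.

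The family's share of the summed FPKM was 1.20% in the SPE library and 1.17% in the control library without mitochondrial and ribosomal RNA genes. It was 0.336% in the SPE library and 0.338% in the control library without genes that overlap another. With models of at least 3 kb, which leave out EIF1 by construction, it was 0.112% in the SPE library and 0.128% in the control library. Leaving out a library and pairing were not run, because the columns SPD2 and Con2 matched no labelled sample and 1 library per group was used. The unknown depth limits all values below 1 FPKM.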
